A study of Homo sapiens with 12 samples.

Results

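WNT3 and WNT5A are secreted Wnt ligands, and both were counted as mRNA in LX-2 cells, an immortalised line of activated human hepatic stellate cells, after transfection with mimics of miR-25 or of an unrelated control. They are 2 of the 199 genes of an nCounter stem cell panel, and the other Wnt ligands of the panel number 17. The 2 were chosen by name with earlier results of these data known, so their tests are not those of unselected genes. The 12 samples form 4 groups of 3: control mimic at 24 h, miR-25 mimic at 24 h, control mimic at 48 h and miR-25 mimic at 48 h. Mimics were used at 10 pmol/ml, and the control mimic derives from a nematode miRNA. A control and a miR-25 sample of 1 transfection share a transfection efficiency and were treated as a pair, which gives 6 pairs. With the controls set to 1, the miR-25 level given for replicates 1, 2 and 3 was 62.3, 193 and 350 at 24 h. At 48 h it was 347, 482 and 681, so the dose reached differed between pairs and time points. The relation of this level to the ligands was not tested. All cells were of 1 line in culture, without other liver cell types, and nothing in the labels says that the replicates were separate cultures apart from their separate transfections, so p-values measure the spread between these samples. In such bulk RNA, fewer expressing cells and less mRNA per cell cannot be told apart.

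Wnt ligands are lipid-modified proteins that bind Frizzled receptors on the same or neighbouring cells. WNT3 is counted among the canonical ligands, which stop the destruction complex from degrading β-catenin so that β-catenin can act with TCF factors in the nucleus. WNT5A is the usual example of a noncanonical ligand, which signals through small GTPases, JNK and calcium without needing β-catenin and can oppose the canonical branch. The study describes WNT5A as taking part in either branch, depending on the receptor. Activated hepatic stellate cells, the collagen-producing cells of the fibrotic liver, are known to respond to both branches. A miRNA acts through bases 2 to 8 of its 5′ end, the seed, which pairs with sites mostly in the 3′UTR of its targets. The comparisons below address whether either ligand differed with miR-25 and with time, and how the level of WNT5A compared with that of WNT3.

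Each gene was counted with 1 probe pair that hybridises to a 100-base stretch of its mRNA, so the count does not grow with transcript length, but probes can differ in efficiency. WNT3 (NM_030753.3) lies on chr17:46762506-46818692 and WNT5A (NM_003392.3) on chr3:55465715-55505263 of GRCh38.p14. The probe targets are shown because they are the only part of each mRNA that was read, WNT3 by its first 30 bases and WNT5A in full, and the mature miR-25 sequence is shown with its seed in capitals. The mimic is named in the labels only as miR-25; the sequence is that of the 3p arm in RefSeq, at chr7:100093571-100093592 on the minus strand of GRCh38.p14.
WNT3 probe target, first bases: ccaactcgcctgtggacggggaggctctcc
WNT5A probe target: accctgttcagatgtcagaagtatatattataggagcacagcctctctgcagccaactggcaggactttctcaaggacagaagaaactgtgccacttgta
hsa-miR-25-3p: cAUUGCACuugucucggucuga
The letters that pair with the whole seed, GTGCAAT on the mRNA strand, occurred in 0% of the 193 panel targets with a known sequence, those of WNT3 and WNT5A included. The search covered these windows only and no other part of the mRNAs.

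Depth differed between the time points before any gene was compared. The total over the 199 genes was 321243 to 409581 counts at 24 h (median 378382) and 107377 to 200821 at 48 h (median 157184), and the sum of the 6 positive control probes, which does not depend on the cells, was 76248 to 87475 and 51306 to 59004. Time point, depth and hybridisation efficiency therefore cannot be told apart in absolute counts, and levels are given below as counts scaled to the mean total of the 12 samples. Among the 48 h samples, the control of replicate 1 had the lowest total, and its pair had the lowest transfection efficiency, 0.42 against 0.61 and 0.65. The total of the miR-25 sample of replicate 1, 155334, was close to that of replicate 2, 159034, and above the control of replicate 2, 140748. The 24 h pairs had efficiencies of 0.59, 0.75 and 0.81, so efficiency differed with time point as well. The activated stellate cell and mesenchymal markers COL1A1, CDH2 and CD44, which are not specific to stellate cells, were above background in 12 of 12 samples. Their summed count was 15219 to 19648 at 24 h and 4636 to 8267 at 48 h. The 4 epithelial markers summed to 29 to 48 and 14 to 23 counts, with FOXA2 above background in 0 of 12 samples, CDH1 in 1, KRT15 in 5 and GJB1 in 10. T cell markers were above it in 11 samples (CD4), 1 (CD8A) and 0 (CD3D and CD8B). For pluripotent cell markers it was 12 (POU5F1), 8 (NANOG) and 0 (SOX2), and for neural markers 8 (SOX1), 5 (NCAM1) and 0 (S100B). None of these other markers exceeded 54 counts in any sample, and their part in the results was not tested.

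WNT3 was a gene of middling level and WNT5A one of the more abundant of the panel. WNT3 averaged 169 counts, rank 101 of 199, and lay 10.2 to 24.5 times above the background level, which is the mean of the 8 negative control probes of a sample plus 2 SD. WNT5A averaged 1287 counts, rank 37, and lay 69.6 to 195 times above it. The number of counted molecules limits the precision of single values to 6.14 to 11.5% for WNT3 and 2.23 to 4.40% for WNT5A, counting error only.

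In the control samples at 24 h, WNT3 had 171, 193 and 199 counts, or 112, 149 and 164 when scaled. With miR-25 at 24 h it had 218, 265 and 200 counts, scaled 141, 180 and 144. These groups overlapped: the third miR-25 sample was below the third control. At 48 h, WNT3 had 75, 105 and 141 counts in the controls, scaled 185, 198 and 204, and 124, 135 and 206 in the miR-25 samples, scaled 212, 225 and 272. All miR-25 samples at 48 h were above all controls of that time, a pattern shown by 3.68% of the 136 genes tested. The scaled group means, from lowest to highest, were control 24 h (142 ± 26.8, SD, n = 3), miR-25 24 h (155 ± 21.9), control 48 h (196 ± 9.58) and miR-25 48 h (236 ± 31.7). The first 2 of these means differed by less than the SD of either group.

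WNT5A had 1940, 1433 and 1387 counts in the controls at 24 h, scaled 1272, 1109 and 1145. The miR-25 samples at 24 h had 2017, 1553 and 1533 counts, scaled 1306, 1058 and 1106. Replicate 1 was the highest sample of both groups, and the groups overlapped fully. At 48 h the controls had 516, 940 and 1158 counts, scaled 1274, 1771 and 1675. The miR-25 samples at 48 h had 547, 1076 and 1348 counts, scaled 934, 1794 and 1780. Replicate 1 was the lowest of both 48 h groups and far below the other two. The scaled group means were 1175 ± 85.7 for control and 1156 ± 131 for miR-25 at 24 h, and 1573 ± 263 and 1502 ± 493 at 48 h (SD, n = 3); at each time point control and miR-25 differed by less than the SD.

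**Figure D1:**
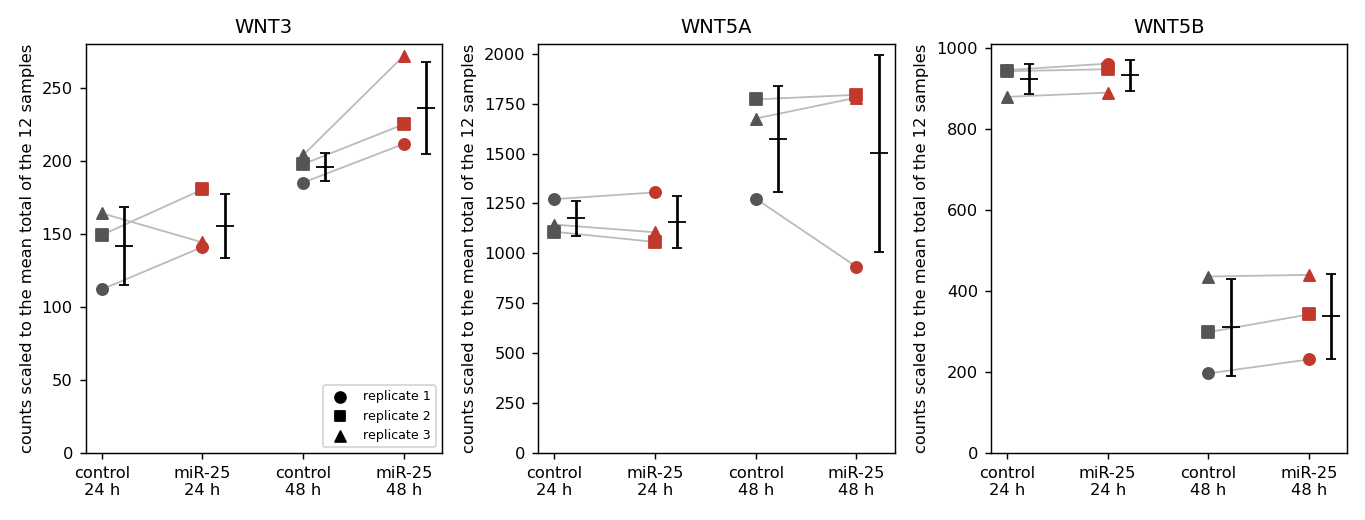
Counts scaled to the mean total (y axis) of WNT3, WNT5A and WNT5B in the 12 samples by group (x axis); lines join the pairs, and black bars are group mean ± SD (n = 3). WNT3 lies at 112 to 180 at 24 h and 185 to 272 at 48 h, WNT5A spreads from 934 to 1794 at 48 h with replicate 1 lowest, and WNT5B lies at 881 to 962 at 24 h and 198 to 441 at 48 h.

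Within pairs, WNT3 was higher with miR-25 in 5 of 6. The 24 h pairs gave ratios of miR-25 over control of 1.26, 1.21 and 0.879, the 48 h pairs 1.14, 1.14 and 1.33. A ratio above 1 in at least 5 of 6 pairs was found for 22.1% of the genes tested, and in all 3 pairs at 48 h for 16.9%, so this count alone sets WNT3 little apart. An exact two-sided sign-flip permutation test of the log2 ratio gave p = 0.09375 over the 6 pairs, where the smallest possible is 0.03125, and with 3 pairs no p under 0.25 can be reached. At 24 h the log2 ratios had an SD of 0.28, above the 0.14 that counting error gives, and at 48 h an SD of 0.13, below the 0.19 of counting error.

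The edgeR quasi-likelihood test with Benjamini-Hochberg adjustment over all genes tested did not call WNT3 in any comparison of miR-25 with control. The log2 fold change was 0.14 (SE 0.10) at 24 h, with an adjusted p of 0.845, in a comparison where 0% of genes were called. It was 0.29 (SE 0.12) at 48 h, adjusted p 0.310, where 0.735% were called, with a 95% interval of the log2 fold change of 0.03 to 0.54. Over both time points it was 0.21 (SE 0.08), unadjusted p 0.0150 and adjusted p 0.203, with 0% called by edgeR; at an unadjusted p under 0.05 there were 9, 17 and 26 genes in these 3 comparisons, and DESeq2 called 0, 3 and 0. The effect at 48 h minus that at 24 h was 0.14 (SE 0.16), adjusted p 0.862, in a comparison with 0% called and 8 genes at an unadjusted p under 0.05, so a difference between the time points was not detectable. The pairs at 24 h did not weigh alike: the 24 h value was 0.05 without replicate 1, 0.07 without replicate 2 and 0.30 without replicate 3 (unadjusted p 0.00806, adjusted p 0.274), and the 48 h value was 0.19 without replicate 3. When counts were scaled to the positive control probes, a setting chosen after the data were seen, WNT3 rose by 0.54 at 48 h (adjusted p 0.00676) and by 0.38 over both time points (adjusted p 0.00497), but the median of all genes shifted by 0.27 and 0.19 too, and 37.5% and 35.3% of genes were called.

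WNT5A was higher with miR-25 in 3 of 6 pairs. The 24 h pairs had ratios of 1.03, 0.954 and 0.966 and the 48 h pairs 0.733, 1.01 and 1.06. The value of 0.733 belongs to the pair with the lowest transfection efficiency. Its miR-25 level, 347, was the lowest at 48 h but above the 62.3 and 193 of replicates 1 and 2 at 24 h. The exact sign-flip permutation test over the 6 pairs gave p = 0.59375. In the edgeR test the log2 fold change was -0.02 (SE 0.07, adjusted p 0.957) at 24 h, -0.08 (SE 0.08, adjusted p 0.705) at 48 h and -0.05 (SE 0.05, adjusted p 0.700) over both, and the difference of the effects was -0.05 (SE 0.10, adjusted p 0.941). The 95% interval of the fold over both time points was 0.896 to 1.04. Without the replicate 1 pair at 48 h, the 48 h value was 0.06 and that over both time points 0.02, on the other side of 0; with positive control scaling they were 0.18 and 0.11, below the shift of the median of all genes.

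The SD of the log2 ratios of WNT5A at 24 h was 0.056, close to the counting error of 0.051, whereas at 48 h it was 0.29 against a counting error of 0.071, with log2 ratios of -0.45 in replicate 1 and 0.02 and 0.09 in the other two. The study corrects a mean ratio that is not close to 1 for transfection efficiency before use. The same step applied to the present ratios gave WNT3 a mean of 1.61 at 24 h and 2.21 at 48 h, and gave WNT5A 0.539 at 48 h. At 24 h the mean WNT5A ratio, 0.982, stayed as it was, since it lay just above 0.98, the lower limit of the step. The ratios of replicates 2 and 3 at 24 h, 0.954 and 0.966, lay below that limit. The study took its ratios after background and positive probe corrections that were not made here, so this outcome could differ. At 48 h the ratios of both ligands moved more with that step than with any scaling run, and the corrected 48 h value for WNT5A ranged from 0.308 to 0.691 over the 3 pairs. Before the step, WNT5A was above 1 in 2 of these 3 pairs (1.01 and 1.06), which fell below 1 only through it. Likewise the third WNT3 pair at 24 h went from 0.879 to 1.08.

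**Figure D2:**
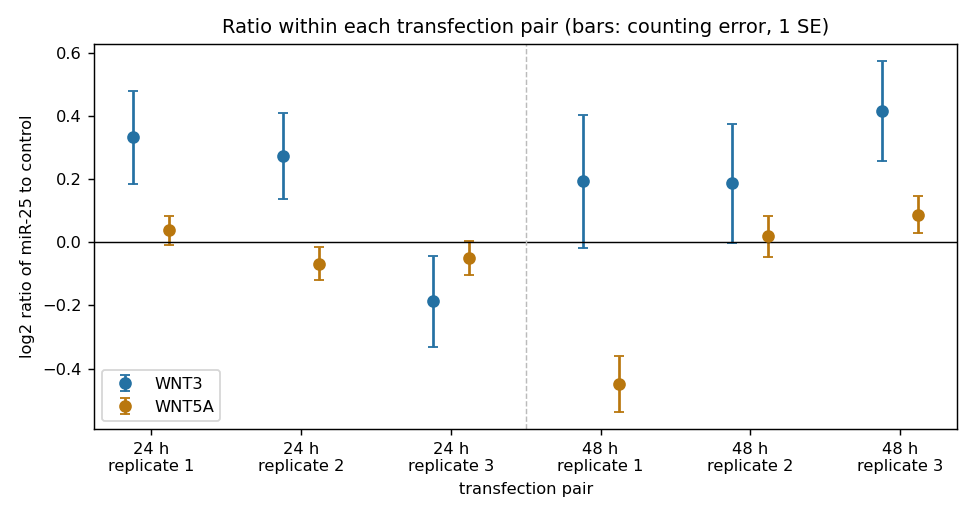
Log2 ratio of miR-25 to control (y axis) of WNT3 and WNT5A in each of the 6 transfection pairs (x axis), counts scaled to the total; bars are the counting error (1 SE). WNT3 is above 0 in 5 of 6 pairs, and WNT5A is near 0 in all but replicate 1 at 48 h, with a ratio of 0.733.

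WNT5A counts exceeded WNT3 counts in every one of the 12 samples. The count of WNT5A divided by that of WNT3 was 11.3, 7.42 and 6.97 in the controls at 24 h and 9.25, 5.86 and 7.67 with miR-25. At 48 h it was 6.88, 8.95 and 8.21 in the controls and 4.41, 7.97 and 6.54 in the miR-25 samples. The group means were 8.58 ± 2.41, 7.59 ± 1.70, 8.02 ± 1.05 and 6.31 ± 1.79 (SD, n = 3) in that order, and each group overlapped with the next. This ratio does not depend on the scaling of a sample, since both genes share it, but it compares 2 probes and is not a ratio of molecules.

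Within pairs, the ratio of WNT5A to WNT3 was lower with miR-25 in 5 of 6. These were the same pairs in which WNT3 was higher with miR-25. As given above, 22.1% of genes were higher in at least 5 of 6 pairs, and WNT3 was not called. The miR-25 ratio divided by the control ratio was 0.816, 0.789 and 1.10 at 24 h and 0.641, 0.890 and 0.797 at 48 h, with a mean of 0.839 ± 0.151 (SD, n = 6). In the 4 pairs other than the third at 24 h and the first at 48 h, the WNT5A ratio lay between 0.954 and 1.06, so WNT3 made up most of the difference there. In replicate 1 at 48 h, the lowest value, both genes contributed, WNT5A more (0.733, log2 -0.45) than WNT3 (1.14, log2 0.19).

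**Figure D3:**
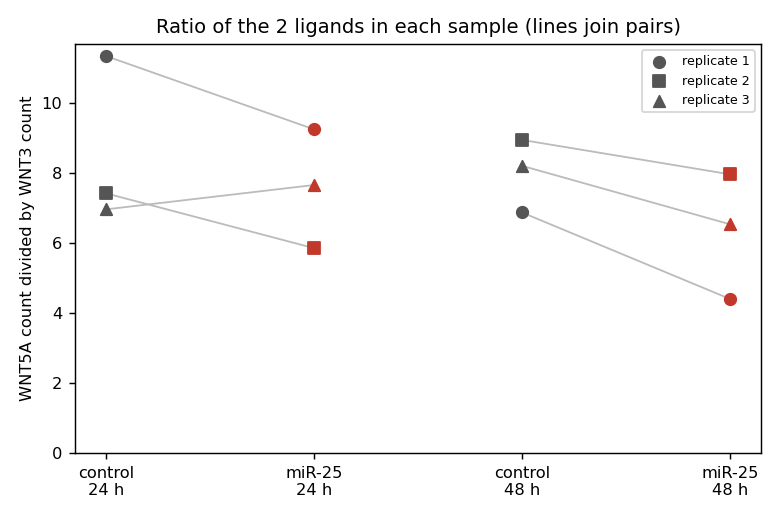
WNT5A count divided by WNT3 count (y axis) in each of the 12 samples by group (x axis), with lines joining the pairs. The values run from 4.41 to 11.3, and 5 of 6 lines fall from control to miR-25.

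Relative to the total, both ligands were higher at 48 h than at 24 h, though neither passed the test with all samples. WNT3 was 1.38-fold higher at 48 h in the controls and 1.52-fold higher in the miR-25 samples, by group means, and its time points did not overlap in either. All 48 h samples lay above all 24 h samples for 21.3% of genes in the controls and 18.4% in the miR-25 samples. The edgeR log2 fold change of WNT3 was 0.47 (SE 0.17, unadjusted p 0.0286, adjusted p 0.128) in the controls, where 5.15% of genes were called, and 0.61 (SE 0.16, unadjusted p 0.00627, adjusted p 0.0691) in the miR-25 samples, where 5% were called. With DESeq2 the adjusted p was 0.0483 and 0.00114, where 29.4% and 31.4% of genes were called.

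WNT5A was 1.34-fold higher at 48 h in the controls and 1.30-fold higher in the miR-25 samples. In the controls the lowest 48 h sample, 1274, stood just above the highest 24 h sample, 1272, and in the miR-25 samples replicate 1 at 48 h was below all 24 h samples. The edgeR log2 fold change was 0.42 (SE 0.14, adjusted p 0.124) in the controls and 0.38 (SE 0.25, adjusted p 0.351) in the miR-25 samples. Without the 48 h sample of replicate 1, WNT5A passed in both, with 0.55 (adjusted p 0.00104) in the controls and 0.63 (adjusted p 0.000874) in the miR-25 samples. WNT3 then passed too, with 0.51 (adjusted p 0.0499) and 0.69 (adjusted p 0.00549). With that sample left out, 29% of genes in the controls and 26.6% in the miR-25 samples were called higher at 48 h, so both ligands passed among many.

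The direction of these time differences rested on the scaling, except for WNT3 in the miR-25 samples, which stayed above 0. With counts scaled to the positive control probes, WNT3 was -0.27 in the controls and 0.07 in the miR-25 samples on the log2 scale, and WNT5A -0.32 and -0.15, while the median of all genes was -0.64 and -0.49. Relative to that median, WNT3 was 0.37 and 0.55 higher at 48 h and WNT5A 0.31 and 0.34 higher. With the total as library size, the same differences from the median were 0.34 and 0.53 for WNT3 and 0.29 and 0.30 for WNT5A. A scaling moves all genes of a sample alike, so these differences are nearly fixed by construction and do not check each other.

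**Figure D4:**
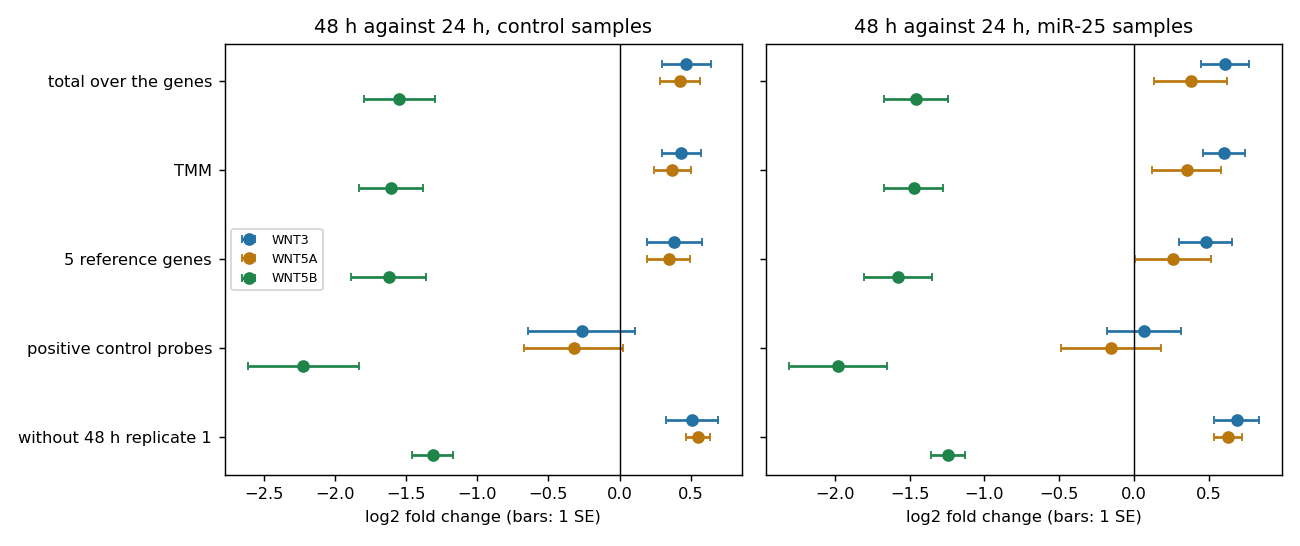
Log2 fold change from 24 h to 48 h (x axis, bars 1 SE) of WNT3, WNT5A and WNT5B in control (left) and miR-25 samples (right) under 4 scalings and without the 48 h sample of replicate 1 (y axis). WNT5B is below -1.2 in all, and WNT3 and WNT5A are above 0 except with positive control scaling, where WNT3 in the controls and WNT5A in both move below it.

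Of the other ligands, WNT5B, the closest relative of WNT5A, was the only one above background in all 12 samples. Its scaled counts were 947, 944 and 881 in the controls and 962, 949 and 891 with miR-25 at 24 h. At 48 h they were 198, 299 and 437 in the controls and 232, 343 and 441 in the miR-25 samples. Scaled to the total, all 48 h samples were below all 24 h samples, as for 14% of genes in the controls and 22.8% in the miR-25 samples. It fell by 1.55 on the log2 scale (SE 0.25, adjusted p 0.0140) in the controls, where 2.21% of genes were called lower, and by 1.46 (SE 0.21, adjusted p 0.0158) in the miR-25 samples, where 2.86% were. It fell under every scaling run, but the call was lost, at adjusted p of 0.0577 to 0.0927, in each fit that left out a 24 h sample or the 48 h sample of replicate 2. With the replicate number as a block in edgeR the call was lost too, at adjusted p 0.0614 in the controls and 0.0732 in the miR-25 samples. With miR-25, WNT5B averaged 1.01-fold the control in the 24 h pairs (SD 0.00582, n = 3) and 1.11-fold in those of 48 h (SD 0.0887), and was not called, with adjusted p from 0.516 over both time points to 0.957 at 24 h. It was higher with miR-25 in 6 of 6 pairs, as were 5.15% of the genes tested, and the exact sign-flip permutation test gave p = 0.03125, the smallest that 6 pairs allow. The 24 h ratios were 1.017, 1.005 and 1.012, each within its counting error of 3.69 to 4.18%. The 24 h log2 change of 0.016 was below the median of all genes, 0.031. It turned negative with TMM and with DESeq2, so the signs at 24 h carry little weight. With positive control scaling, chosen after the data were seen, WNT5B was called at 48 h (log2 0.39, adjusted p 0.0277) and over both time points (0.23, adjusted p 0.0350). There 37.5% and 35.3% of genes were called, and the median of all genes shifted by 0.27 and 0.19. Relative to that median, WNT5B was 0.12 and 0.05 higher.

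The 3 ligands together made up 91.7 to 96.1% of all Wnt ligand counts. The share of WNT5B was 38.2 to 41.0% at 24 h and 11.1 to 17.8% at 48 h. That of WNT5A was 45.7 to 52.4% and then 62.2 to 73.8%, and that of WNT3 was 4.62 to 7.81% and then 8.25 to 14.1%. These shares need no scaling between samples, but they sum to a constant, so a lower share of WNT5B raises the others. The ratio of WNT5A to WNT3, given above, overlapped between the time points. The count of WNT5B divided by that of WNT3 was 5.26 to 8.44 at 24 h and 1.07 to 2.14 at 48 h. The ratio of WNT5A to WNT3 therefore does not stand for all the Wnt ligands counted. The remaining 16 ligands were near or under background: 7 exceeded it in some samples and 9 in none, among them WNT3A, the ligand closest to WNT3, with 1 to 9 counts. These counts depend on the level chosen: with the mean plus 1 SD, 4 of the 19 ligands were above it in all samples and 2 in none, and against the highest negative probe 3 and 5.

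**Figure D5:**
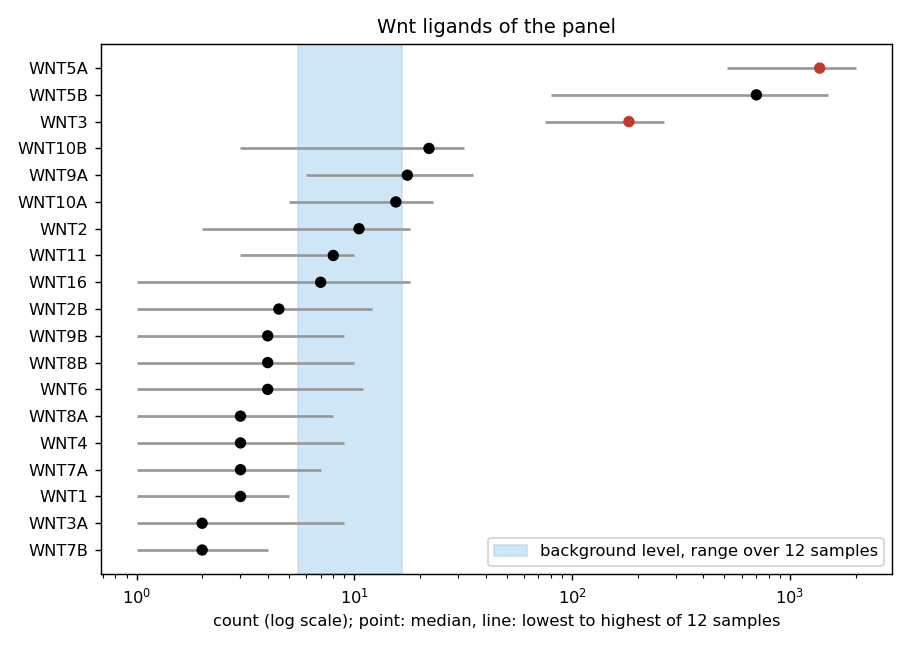
Counts (x axis, log scale) of the 19 Wnt ligands (y axis) over the 12 samples, point for the median and line from lowest to highest, with the range of the background level shaded. WNT5A, WNT5B and WNT3 have medians of 1368, 700.5 and 182 counts, and the medians of all others are at or below 22.

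The genes that relay a Wnt signal were described by lists of the panel's receptors, relays and targets. Without WNT3 and WNT5A the lists held 64 genes, of which 42 were tested in the comparisons of miR-25 with control and none was called at 24 h, at 48 h or over both, beside 0%, 0.735% and 0% of all genes tested. Their median log2 fold change was 0.02 at 24 h and -0.02 at 48 h, against 0.03 and -0.01 for all genes tested. Canonical target genes (CCND1, CCND2, MYC, FOSL1, PPARD and JUN) had a median of 0.12 at 24 h and -0.01 at 48 h, with 0 of 6 called, and the 11 tested noncanonical effectors, such as RHOA and RAC1, -0.01 and 0.01, with 0 called.

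Between the time points, 1 of the 42 tested genes of these lists was called in the controls, WNT5B, and 3 of 44 in the miR-25 samples, WNT5B, FZD7 and APC. Over all genes tested 7 of 136 and 7 of 140 were called, the 5.15% and 5% given above, so the lists were near the rate of the panel. FZD7, a Frizzled receptor, had 263 to 277 scaled counts at 24 h and 170 to 184 at 48 h, and fell by 0.61 (SE 0.11, adjusted p 0.0272). APC, the scaffold of the destruction complex, had 366 to 420 and 238 to 276, and fell by 0.58 (SE 0.11, adjusted p 0.0292). In the controls the values were -0.58 for FZD7 (adjusted p 0.0771) and -0.56 for APC (adjusted p 0.113), and both genes lost the call in 5 of the 6 fits without 1 sample, with adjusted p up to 0.135 and 0.153. The canonical target genes had medians of -0.14 in the controls and -0.26 in the miR-25 samples, beside 0.13 and 0.08 for all genes, with 0 of 6 called. The receptors other than FZD7 were not called in either, and their list had medians of 0.16 and 0.18.

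The genes with the most similar pattern were sought by Pearson's correlation of log2 scaled values over the 12 samples after the mean of each time point was taken off, among 135 other genes. WNT3 was most like DTX2, a Notch pathway gene (r 0.85), LOC652788 (0.79) and LFNG, a glycosyltransferase that modifies Notch (0.78), and these were 0.90, 0.89 and 0.77 over the 10 samples without replicate 1 at 48 h. Their ranks among those samples were 3, 4 and 11. Scaled counts of DTX2 ran from 42.0 to 84.4 among the 24 h samples and from 64.0 to 83.6 among those of 48 h, and its lowest sample, the control of replicate 1 at 24 h, was the lowest for WNT3 as well. WNT5A was most like COL1A1, which encodes collagen type I (r 0.92), NCSTN, a γ-secretase subunit (0.91), and RHOA (0.91). Without replicate 1 at 48 h these fell to 0.046, -0.13 and 0.37, so the likeness of WNT5A to these genes rested on that pair. COL1A1 had scaled counts of 1963 and 1432 in the control and the miR-25 sample of that pair against 3839 to 4924 in the other 48 h samples. WNT3 and WNT5A themselves had an r of 0.036, rank 96 of 135. Without replicate 1 at 48 h it was -0.51, rank 128, so this value rested on that pair too. All these points share libraries and their scaling.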

How the data were processed

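Counts of 199 genes in 12 LX-2 samples were grouped by their labels. The authors deposited raw counts per probe, read with nSolver 3.0 after 50 ng RNA was hybridised for 16 h at 65 C, without background correction or scaling. Of the identifiers, 193 were named from the panel sheet and 6 from RefSeq. The quasi-likelihood test of edgeR 4.0.16 in R 4.3.3 was used, with the summed count of all genes as library size, on genes averaging 20 counts or more, with Benjamini-Hochberg adjustment at 0.05. Comparisons of miR-25 with control used all 12 samples with the transfection pair as a block; deviations within pairs correlated at 0.283 to 0.887. Time comparisons used the 6 samples of 1 treatment without a block. Replicates of a group differed by more than sampling noise (chi-square per degree of freedom at least 2.52). Alternatives used DESeq2 1.42.0, limma 3.58.1 on log2 values plus a pseudocount of 1 or 10, other scalings and filters, and each replicate left out. The tests were also run on simulated counts drawn from 1 common profile without pair effects. That run does not show how the tests behave on these data, and its outcome is not given. The text names WNT3, WNT5A, other ligands above background in all samples, pathway genes called, and the 3 genes most like each ligand. The members and lists were chosen with earlier results of these data known.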

Additional observations from a re-analysis of the deposited data

How the results depend on the processing

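No alternative turned the direction of WNT3 with miR-25 at 24 h, at 48 h or over both time points, and in 4 of the 6 comparisons WNT3 or WNT5A crossed the threshold under some setting. With DESeq2, WNT3 passed in time in the controls (log2 0.41) and the miR-25 samples (0.60) and WNT5A in the controls (0.35). WNT3 in time in the miR-25 samples also passed with TMM (0.60), the total without GAPDH (0.67) and all 12 samples in 1 fit (0.61). With positive control scaling, added after the data were seen, WNT3 with miR-25 passed at 48 h (0.54) and over both time points (0.38) and its time difference in the controls was -0.27, while WNT5A was 0.038, 0.18 and 0.11 with miR-25, 0.14 for the difference of effects and -0.32 and -0.15 in time. Corrected for transfection efficiency, log2 values with miR-25 were 0.63, 1.13 and 0.88 for WNT3 at 24 h, 48 h and both, and -0.98 and -0.50 for WNT5A at 48 h and both. That correction moves mean ratios further from 1 by construction. The WNT5A value over both takes in a 24 h value that the correction left unchanged by a narrow margin. WNT5B with miR-25 at 24 h was -0.016 with TMM and -0.023 with DESeq2.

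With 1 replicate left out at a time, WNT3 with miR-25 lay between 0.05 and 0.30 at 24 h, 0.19 and 0.33 at 48 h and 0.17 and 0.29 over both time points, with no call. WNT5A with miR-25 lay between -0.18 and 0.055 at 48 h and between -0.10 and 0.016 over both time points, and crossed 0 only without replicate 1 at 48 h. The difference of the miR-25 effects ranged from -0.013 to 0.23 for WNT3, negative without replicate 3 at 24 h, and from -0.15 to 0.079 for WNT5A, positive without replicate 1 at 48 h. In time, WNT3 ranged from 0.32 to 0.59 in the controls and 0.49 to 0.73 in the miR-25 samples, and WNT5A from 0.33 to 0.55 and 0.23 to 0.63. The number of genes called ranged from 0 to 3 at 24 h, 0 to 2 at 48 h and 0 to 2 over both time points for miR-25, and in time from 1 to 58 in the controls and 0 to 62 in the miR-25 samples, the highest counts being those without replicate 1 at 48 h.

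Over all samples the genes called in time, 7 in each treatment, became 40 and 44 with DESeq2, 26 and 50 with positive control scaling, and in the miR-25 samples 14 with TMM, 12 with the total without GAPDH and 17 with all 12 samples in 1 fit. For miR-25 at 24 h, 0 became 3 with 1 time point fitted alone. For 48 h, 1 became 3 with no filter, with DESeq2 and with 1 time point alone, 0 with the reference genes, with limma after background subtraction and without the block, and 51 with positive control scaling. Over both, 0 became 48 with positive control scaling, 2 with no filter and 1 with limma at either pseudocount. For the difference, 0 became 1 with TMM, DESeq2, no filter and positive control scaling.

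Without the pair as a block, WNT3 with miR-25 was 0.13, 0.27 and 0.20 and WNT5A -0.02, -0.07 and -0.05 at 24 h, 48 h and both. Replicate numbers were shared across time points without pairing them (correlations -0.091 to 0.063); with them as a block, 0 genes were called in time, and WNT3 was 0.47 and 0.61 and WNT5A 0.41 and 0.33. The cause of these changes was not tested.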

Other observations

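Of the ligands with low counts, WNT10B had 3 to 32 counts and exceeded the background level in 6 of 6 samples at 24 h and 3 of 6 at 48 h. WNT9A, with 6 to 35 counts, did so in as many samples of each time point. WNT10A (5 to 23 counts) exceeded it in 5 of 6 samples at both time points and WNT2 (2 to 18 counts) in 6 and 1. WNT11, a noncanonical ligand like WNT5A, did so in 0 of 6 samples at 24 h and 4 of 6 at 48 h, with no more than 10 counts in any sample. At these counts and with the lower totals at 48 h, a difference between the time points was not detectable.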
